A study of Mus musculus with 3 samples.

Results

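Expression of 8 genes that encode T-lineage surface receptors and adaptors was followed across 3 sorted immune populations of the mouse gut epithelium. The genes were fixed by name, matched to their Ensembl IDs by symbol, and all 8 were found among the 37224 genes of each deposited count table. They comprise 5 surface receptors (Cd2, Cd5, Cd6, Cd7 and Thy1) and 3 intracellular adaptors (Sh2d2a, Skap1 and Themis). All mice were RAG-2 null, so they lacked a recombinase subunit needed to rearrange antigen receptor genes in T and B lymphocytes, and no wild-type library was analysed here. The iCD8a library was made from CD45-positive, CD8α-positive cells, the ILC1 library from group 1 innate lymphoid cells positive for NKp46 and NK1.1, and the CD11b+ library from CD45-positive myeloid cells that lacked CD8α and carried CD11b. Each population had 1 library, so no difference has a replicate check, none could be tested, and the spread between animals is unknown. The labels used here state neither the age of the mice nor whether animals were pooled.

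These receptors sit on the surface of T cells and related lymphocytes and adjust how strongly antigen receptors signal or how firmly the cell adheres. The adaptors lie beneath the membrane, where they gather kinases, phosphatases and integrin regulators after a receptor is engaged. In T cells most of the 8 proteins act together with the antigen receptor. Innate lymphoid cells carry some of them without any rearranged receptor.

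The iCD8a library held 21678113 reads counted on genes, the ILC1 library 22181660 and the CD11b+ library 30511296. A count of 0 in such a library allows at most 0.127, 0.136 and 0.106 CPM (3 counts). CPM is a count scaled to a common library size after adjustment by TMM, a factor that offsets differences in library composition. Cd8a stood at 2636 (iCD8a), 4.41 (ILC1) and 28.3 CPM (CD11b+), and Ncr1, which encodes NKp46, at 1.44, 396 and 2.23 CPM. Itgam, which encodes CD11b, stood at 362, 187 and 845 CPM, so it was counted outside its own gate as well. Rag2 had 0 counts in each library, and Rag1 had 0, 0 and 1. The libraries also carried markers of other cells. The summed level of 20 intestinal epithelial markers was 913 (iCD8a), 534 (ILC1) and 2128 CPM (CD11b+), with medians of 8.67, 7.93 and 65.0 CPM. Cdh1, the largest of the 20 in iCD8a and ILC1, stood at 359, 289 and 208 CPM, so the sums rest on few genes there. For 12 macrophage markers the summed level was 33, 388 and 7984 CPM. Of 10 plasmacytoid dendritic cell markers, 10, 5 and 6 reached 5 CPM in the same order of libraries.

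The 8 genes did not share a pattern. Cd7 and Themis were highest in iCD8a, Cd2 and Thy1 in ILC1, Cd6 in CD11b+, while Sh2d2a and Skap1 were abundant in both lymphoid libraries. Cd5 was scarce everywhere. To be called higher or lower, a gene needed a fold of 4 or more, a 95% exact binomial counting interval that stayed beyond 2-fold, and 5 CPM or more in the library where it was higher. That interval, given in brackets after each fold, covers counting error only. Higher than both other libraries were Cd7 and Themis in iCD8a, Cd2 and Thy1 in ILC1 and Cd6 in CD11b+. Of all 11063 genes with at least 5 CPM in some library, 1.52%, 1.68% and 10.2% were higher than both others in iCD8a, ILC1 and CD11b+.

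**Figure D1:**
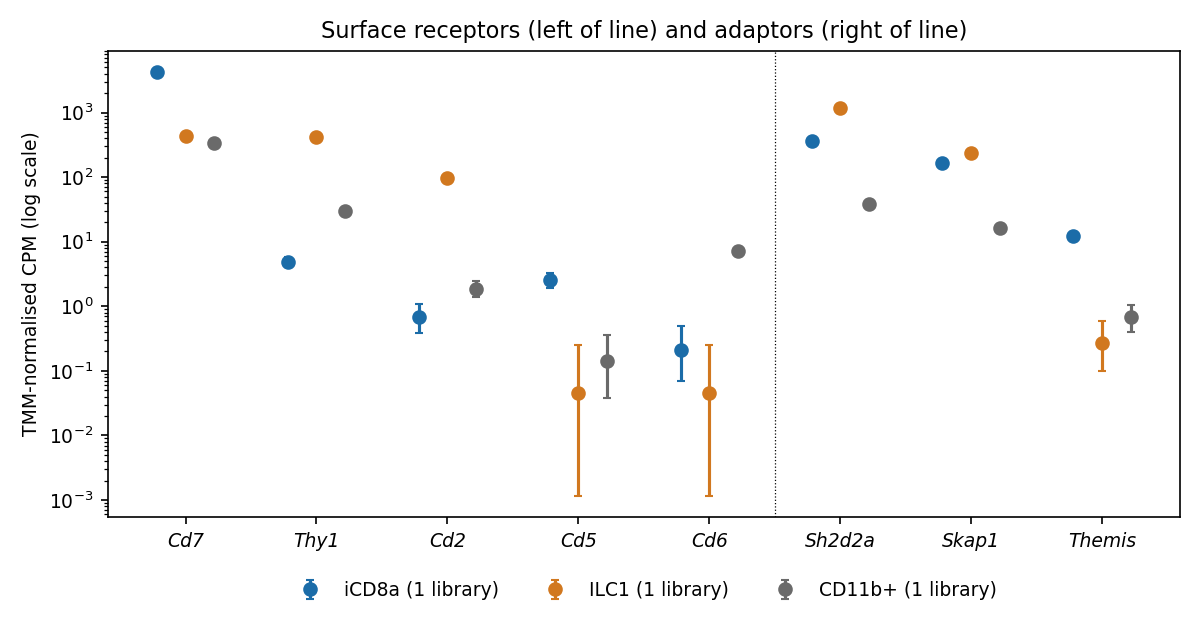
TMM-normalised CPM (log scale) of the 5 surface receptors and 3 adaptors in the iCD8a, ILC1 and CD11b+ libraries, 1 library each; bars are 95% exact Poisson counting intervals and are hidden by the point where counts are high. Cd7 and Themis are highest in iCD8a, Cd2 and Thy1 in ILC1 and Cd6 in CD11b+, and the long bars of Cd5 and Cd6 in ILC1 each rest on 1 count.

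Among the surface receptors, Cd7 (ENSMUSG00000025163) encodes an immunoglobulin-family receptor of T cells, natural killer cells and their precursors. It was the most abundant of the 5 receptors per kilobase in each library. Its level was 4223 CPM in iCD8a (99805 counts), 435 CPM in ILC1 (9573 counts) and 336 CPM in CD11b+ (9467 counts). Cd7 was therefore highest in iCD8a, and no library was free of it. It was 9.71-fold higher in iCD8a than in ILC1 (9.51 to 9.92) and 12.6-fold higher than in CD11b+ (12.3 to 12.9). ILC1 and CD11b+ lay close, with a 1.30-fold ratio of ILC1 over CD11b+ (1.26 to 1.33) that was not called. Per kilobase of merged exon, the scale on which different genes can be compared, Cd7 ranked 4 of 14853 detected protein-coding genes in iCD8a, 81 of 14989 in ILC1 and 118 of 15622 in CD11b+. On that scale it made up 99.9% of the summed level of the 5 receptors in iCD8a, 66.6% in ILC1 and 96.1% in CD11b+.

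Thy1 (ENSMUSG00000032011) encodes a glycoprotein anchored in the outer membrane leaflet that marks mouse T cells and many innate lymphoid cells, and is also known on neurons and fibroblasts. It stood at 4.87 CPM in iCD8a (115 counts), 412 CPM in ILC1 (9070 counts) and 30.2 CPM in CD11b+ (851 counts). Here iCD8a was the lowest of the libraries and ILC1 the highest. Thy1 was 84.7-fold lower in iCD8a than in ILC1 (70.5 to 103) and 6.20-fold lower than in CD11b+ (5.10 to 7.60). In ILC1 it was 13.7-fold higher than in CD11b+ (12.7 to 14.7). Of 12 stromal markers, 11 were under 1 CPM in ILC1 (10 in iCD8a and 9 in CD11b+), and Pdgfra, Lum, Col6a1 and Bgn had 0 counts there. The exception in ILC1 was Vim, at 218 (iCD8a), 354 (ILC1) and 1308 CPM (CD11b+). With Vim the stromal list summed to 228, 357 and 1315 CPM. The 8 neural and glial markers summed to 3.0 (iCD8a), 2.73 (ILC1) and 4.22 CPM (CD11b+). The part of stromal or neural cells in the Thy1 levels was not tested. The 12 markers of group 2 and group 3 innate lymphoid cells, populations that also carry Thy1, summed to 67.6 (iCD8a), 788 (ILC1) and 126 CPM (CD11b+), of which 2, 7 and 6 reached 5 CPM. Il5 was at 0 in each library, and the part of such cells in the Thy1 levels was not tested. In bulk samples fewer cells of a type and less RNA per cell cannot be told apart.

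Cd2 (ENSMUSG00000027863) encodes an adhesion receptor that binds CD48 on neighbouring cells in mice. Its 16 counts in iCD8a gave 0.677 CPM, against 95.6 CPM in ILC1 (2103 counts) and 1.88 CPM in CD11b+ (53 counts). Cd2 was thus an ILC1 transcript in this series, near the counting floor in iCD8a. It was 141-fold lower in iCD8a than in ILC1 (86.7 to 247) and 50.9-fold higher in ILC1 than in CD11b+ (38.7 to 68.1). Between iCD8a and CD11b+ the difference was 2.77-fold, lower in iCD8a (1.56 to 5.20), and was not called. Its ligand gene Cd48 was present throughout, at 135 (iCD8a), 93.2 (ILC1) and 91.3 CPM (CD11b+).

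Cd5 (ENSMUSG00000024669) and Cd6 (ENSMUSG00000024670) are neighbouring genes for scavenger-receptor cysteine-rich proteins of T cells. CD5 restrains antigen-receptor signalling, and CD6 binds the adhesion molecule ALCAM. Cd5 had 60 counts in iCD8a, 1 in ILC1 and 4 in CD11b+, which gave 2.54, 0.0454 and 0.142 CPM. None of these reached 5 CPM, so Cd5 was not called in any comparison, although its counts lay mostly in iCD8a. The ratio of iCD8a over ILC1 was 55.9-fold with a very wide interval (9.65 to 2243), and that of iCD8a over CD11b+ was 17.9-fold (6.64 to 67.9). Cd6 went the other way, with 5 counts in iCD8a, 1 in ILC1 and 206 in CD11b+, or 0.212, 0.0454 and 7.30 CPM. Its level was 34.5-fold lower in iCD8a than in CD11b+ (14.6 to 107) and 161-fold lower in ILC1 than in CD11b+ (28.5 to 6378). Between iCD8a and ILC1 both values rest on a handful of counts, and the 4.66-fold ratio had an interval that spans 1 (0.521 to 220). Alcam, the gene of the CD6 ligand, was 20.4-fold lower in iCD8a (4.36 CPM) than in CD11b+ (88.8 CPM), with an interval of 16.7 to 25.1. It was likewise 20.4-fold lower in ILC1 than in CD11b+ (16.6 to 25.2). The 10 matched T cell receptor and coreceptor markers summed to 5868 (iCD8a), 413 (ILC1) and 298 CPM (CD11b+), with 10, 6 and 5 of them at 5 CPM or more and none at 0. In CD11b+ the highest of these markers were Cd3g at 205, Cd4 at 33.6, Cd8a at 28.3 and Trbc1 at 17.5 CPM. Trbc2 stood at 5.10 CPM there, and the rest were lower: Trac 3.30, Cd8b1 1.42, Cd3e 1.38, Cd247 1.13 and Cd3d 0.532 CPM. The 10 classical dendritic cell markers summed to 878, 1104 and 4174 CPM, with 7, 4 and 8 of them at 5 CPM or more and none at 0. Itgax alone stood at 722, 957 and 1591 CPM, so it made up most of the sums in iCD8a and ILC1. The medians of these markers were 15.7 (iCD8a), 3.43 (ILC1) and 288 CPM (CD11b+). The part of T cells or dendritic cells in the Cd6 level was not tested.

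Among the adaptors, Sh2d2a (ENSMUSG00000028071) encodes TSAd, a T-cell adaptor that binds the kinase LCK. It was the most abundant adaptor per kilobase in every library. Sh2d2a stood at 365 CPM in iCD8a (8623 counts), 1184 CPM in ILC1 (26064 counts) and 39.1 CPM in CD11b+ (1102 counts). The lymphoid libraries were both far above CD11b+, by 9.34-fold for iCD8a (8.77 to 9.95) and 30.3-fold for ILC1 (28.5 to 32.2). Between them Sh2d2a was 3.25-fold lower in iCD8a than in ILC1 (3.17 to 3.33), below the 4-fold line. Counting error is small at this depth, yet without replicates a difference of this size has no measure of animal-to-animal spread.

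Skap1 (ENSMUSG00000057058) encodes SKAP55, which works with the adaptor ADAP, the product of Fyb, to carry signals from the antigen receptor to integrins. Its level was 167 CPM in iCD8a (3951 counts), 236 CPM in ILC1 (5204 counts) and 16.1 CPM in CD11b+ (455 counts). This was the most even of the 8 genes between the lymphoid libraries, with a 1.41-fold lower level in iCD8a than in ILC1 (1.36 to 1.47). Over CD11b+ it was 10.4-fold higher in iCD8a (9.41 to 11.4) and 14.7-fold higher in ILC1 (13.3 to 16.2). Fyb differed little between libraries, at 247 (iCD8a), 256 (ILC1) and 314 CPM (CD11b+).

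Themis (ENSMUSG00000049109) encodes an adaptor needed when thymocytes are selected, which binds GRB2 and the phosphatase SHP-1. It stood at 12.4 CPM in iCD8a (294 counts), 0.273 CPM in ILC1 (6 counts) and 0.673 CPM in CD11b+ (19 counts). Only the iCD8a library passed 1 CPM. Themis was 45.6-fold higher in iCD8a than in ILC1 (20.7 to 125) and 18.5-fold higher than in CD11b+ (11.6 to 31.1). ILC1 and CD11b+ did not differ beyond counting error (0.405-fold for ILC1 over CD11b+, 0.132 to 1.05). Grb2 and Ptpn6, the genes of its binding partners, were present in each library at 132 CPM or more.

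Cd5, at a lower level, had most of its counts in iCD8a, as Themis did. Of the 28 pairs among the 8 genes, Cd5 and Themis had the closest profiles over the 3 libraries, 0.14 apart in log2 distance after centring each gene on its own mean. Cd2 and Thy1 were 1.35 apart and Sh2d2a and Skap1 0.92, while Cd2 and Cd6 were farthest, at 9.04. With 3 points a gene these distances are descriptions only. The closeness of Cd5 and Themis also rests on few counts outside iCD8a: 1 in ILC1 and 4 in CD11b+ for Cd5, and 6 and 19 for Themis. With 0.5 added to each count, both genes gave a log2 ratio of -1.23 for ILC1 over CD11b+. The Cd5 fold there had an interval of 0.00651 to 3.24, so a shared profile is not established. The table of RefSeq promoters (GRCm38.p6) held 2 of the 8 genes, Cd5 and Themis. Both genes are shown, Themis by the first of its 2 overlapping windows. Themis2, a relative of Themis that is highest in CD11b+, is shown beside them for its different pattern. Each runs from 250 bases before the start to 50 after it, 5′ to 3′ on the gene's strand, and capitals mark matches to 4 short motifs on either strand: TGTGGT of RUNX factors, GAGGAA of PU.1, CTTTGA of TCF and LEF factors, and AGATAA of GATA factors.
Cd5, chr19:10738925-10739224, minus strand: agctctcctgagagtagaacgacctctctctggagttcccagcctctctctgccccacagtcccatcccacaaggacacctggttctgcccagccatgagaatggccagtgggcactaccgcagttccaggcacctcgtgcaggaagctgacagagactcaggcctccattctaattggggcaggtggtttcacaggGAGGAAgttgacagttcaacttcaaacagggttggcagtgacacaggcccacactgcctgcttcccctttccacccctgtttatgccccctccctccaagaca
Themis, chr10:28668110-28668409, plus strand: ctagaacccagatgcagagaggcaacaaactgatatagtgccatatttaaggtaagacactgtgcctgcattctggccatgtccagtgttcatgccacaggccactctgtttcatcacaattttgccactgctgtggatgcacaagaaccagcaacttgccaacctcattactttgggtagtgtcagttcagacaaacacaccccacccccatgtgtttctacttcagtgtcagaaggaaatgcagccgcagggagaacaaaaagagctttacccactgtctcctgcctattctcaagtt
Themis2, chr4:132796315-132796614, minus strand: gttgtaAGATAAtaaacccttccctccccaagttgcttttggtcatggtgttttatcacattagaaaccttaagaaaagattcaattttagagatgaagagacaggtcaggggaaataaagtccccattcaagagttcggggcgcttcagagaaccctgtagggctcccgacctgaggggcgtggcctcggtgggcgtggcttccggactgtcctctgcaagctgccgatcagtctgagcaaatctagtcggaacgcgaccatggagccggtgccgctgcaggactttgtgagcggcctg
The Cd5 window held 1 match, GAGGAA at position -53 from the start, a motif found in 28.3% of the 32851 promoters searched. The Themis window held no match to any of the 4. Neither did its second window or that of Skap2, a relative of Skap1, which are not shown. In the Themis2 window AGATAA stood at position -244, and 11.2% of the promoters searched hold that motif. For the other motifs the shares were 16.8% for TGTGGT and 16% for CTTTGA. The motifs were chosen with earlier results of these data known, a match is not a bound site, and no overlap between matches occurred in these windows.

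Read by comparison, iCD8a over ILC1 had 2 of the 8 genes called higher (Cd7 and Themis) and 2 called lower (Cd2 and Thy1), with a median log2 ratio of 0.64 and a range of -7.10 to 5.40. A gene counted as tested where it reached 5 CPM in either library, which 6 of the 8 did in each comparison. Of the 10110 genes tested, 3.52% were called higher and 4.89% lower. All 8 genes reached 1 CPM in some library, and over the 13649 genes that did so the median was 0.04. Cd5 and Cd6 were not tested here and had 1 count each in ILC1, with log2 ratios of 5.23 and 1.77. The tested genes stood at -7.10 (Cd2), -6.40 (Thy1), -1.70 (Sh2d2a), -0.50 (Skap1), 3.28 (Cd7) and 5.40 (Themis). The positive median of the 8 thus depends on Cd5 and Cd6. In iCD8a over CD11b+, 4 were called higher (Cd7, Sh2d2a, Skap1 and Themis) and 2 lower (Cd6 and Thy1), against 6.13% and 13.4% of 10821 genes. The median of the 8, with Cd2 and Cd5 untested, was 3.30 against 0.04 over the 13649 genes. For ILC1 over CD11b+, 4 were called higher (Cd2, Thy1, Sh2d2a and Skap1) and Cd6 was called lower, against 6.01% and 13% of 10734 genes. The median of the 8 was 2.07 against 0.004 over the 13649 genes. It includes Cd5 and Themis, untested there, at -1.23 each on few counts in both libraries. The 3 comparisons share libraries, so their results are not independent, and the 8 genes were picked with earlier results of these data known.

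**Figure D2:**
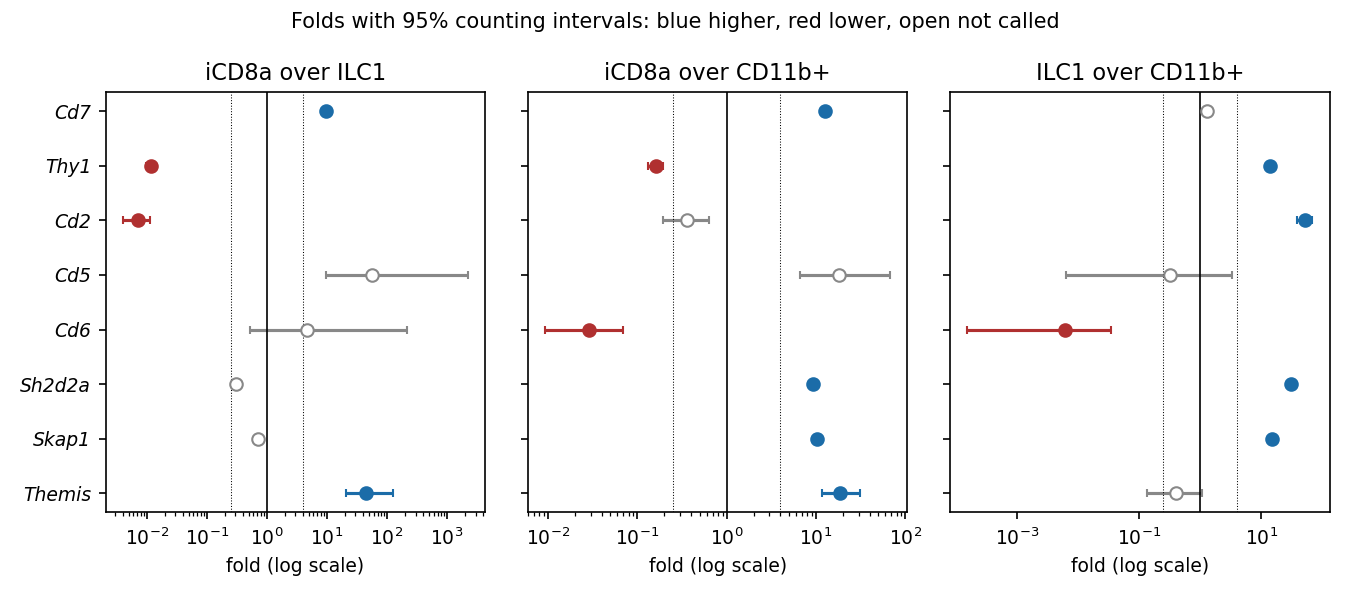
Fold of each gene (log scale) in iCD8a over ILC1, iCD8a over CD11b+ and ILC1 over CD11b+, with 95% exact counting intervals; blue points were called higher, red points lower, open points were not called, and dotted lines mark a 4-fold difference either way. Thy1 and Cd2 lie far to the left in iCD8a over ILC1, and Cd6 lies far to the left in both comparisons with CD11b+.

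Within a library, the order of levels per kilobase was Cd7, Sh2d2a, Skap1, Thy1, Themis, Cd5, Cd2 and Cd6 in iCD8a. The values ran from 3728 CPM per kb for Cd7 through 61.4 for Sh2d2a and 22.4 for Skap1 to 0.0266 for Cd6. Cd5 and Cd2, neighbours in that order, did not differ beyond counting error (1.32-fold, 0.753 to 2.46). In ILC1 the order was Cd7 (384 CPM per kb), Sh2d2a (199), Thy1 (138), Cd2 (54.9) and Skap1 (31.7), and then Themis, Cd5 and Cd6 at 0.0233 or below, which could not be ordered. CD11b+ held Cd7 at 296 CPM per kb, Thy1 at 10.1, Sh2d2a at 6.58, Skap1 at 2.16, Cd2 at 1.08 and Cd6 at 0.916, the last pair level within counting error. Themis at 0.0577 and Cd5 at 0.0288 CPM per kb came after them in CD11b+ and were likewise not separable. The merged exon length counts every annotated isoform, so a gene with rarely used exons has its level per kilobase understated.

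The levels in CD11b+ can be set beside those of T cell receptor and coreceptor markers and of natural killer and ILC1 markers. Among these, only Cd8a, Ncr1 and Klrb1c encode proteins that the sorts were made on. Relative to iCD8a, CD11b+ held Cd7 at 7.95% (7.78% to 8.11%), Sh2d2a at 10.7% (10.05% to 11.4%), Skap1 at 9.65% (8.74% to 10.6%) and Themis at 5.41% (3.21% to 8.61%). On the same measure the 10 T cell receptor and coreceptor markers ran from 1.07% for Cd8a to 140% for Cd4, with a median of 6.84%. The CD3 chain genes among them lay at 2.48% for Cd3d, 2.96% for Cd3e and 7.47% for Cd3g. Relative to ILC1, CD11b+ held Thy1 at 7.32% (6.81% to 7.85%), and Cd2 at 1.97% (1.47% to 2.58%). Against the same library Sh2d2a lay at 3.30% (3.10% to 3.50%), Skap1 at 6.82% (6.18% to 7.51%) and Cd7 at 77.1% (75.0% to 79.4%). The 12 natural killer and ILC1 markers ran from 0.187% for Klrc2 to 11.4% for Klrd1 with a median of 0.451%, and included Ncr1 at 0.563% and Klrb1c, which encodes NK1.1, at 2.69%. Whether lymphoid cells in the CD11b+ sort account for any of these levels was not tested.

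Themis2 and Skap2, relatives of the adaptors, were highest in the myeloid library. Themis2, which acts in B cells and myeloid cells, stood at 62.3 (iCD8a), 16.4 (ILC1) and 609 CPM (CD11b+). Skap2, the broadly expressed relative of Skap1 in myeloid cells, stood at 45.7, 22.1 and 220 CPM. Themis2 was 9.78-fold (9.27 to 10.3) and Skap2 4.81-fold (4.51 to 5.14) lower in iCD8a than in CD11b+, and they were 37.2-fold (33.5 to 41.4) and 9.97-fold (9.09 to 11.0) lower in ILC1. Between the lymphoid libraries neither was called, with Themis2 3.81-fold (3.39 to 4.29) and Skap2 2.07-fold (1.86 to 2.31) higher in iCD8a.

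Per kilobase, Skap1 exceeded Skap2 by 5.56-fold in iCD8a (5.20 to 5.96) and by 16.3-fold in ILC1 (14.8 to 17.9), while in CD11b+ it reached 0.112 of the Skap2 level (0.101 to 0.123). The SKAP pair thus changed order between the lymphoid and the myeloid library. The THEMIS pair did not: Themis lay below Themis2 in each library, at 0.0526 of its level in iCD8a (0.0463 to 0.0597), 0.00439 in ILC1 (0.00160 to 0.00966) and 0.000291 in CD11b+ (0.000175 to 0.000455). Even where Themis was highest, its relative was more abundant.

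**Figure D3:**
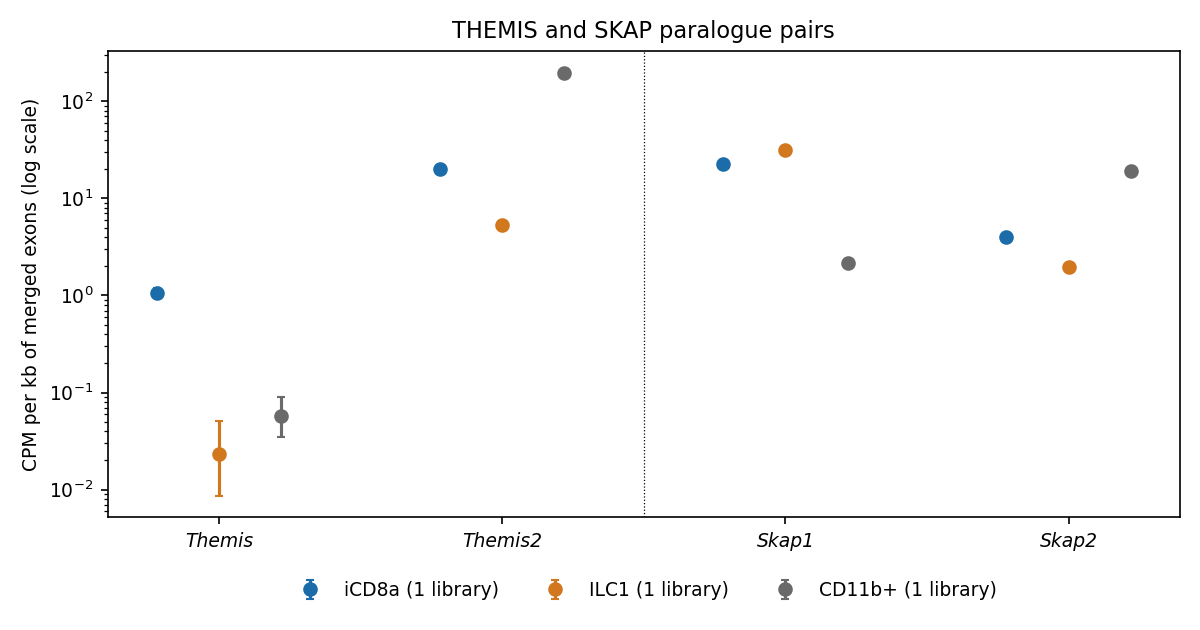
CPM per kilobase of merged exon (log scale) of Themis and Themis2, left of the dotted line, and of Skap1 and Skap2, right of it, in iCD8a, ILC1 and CD11b+ (1 library each); bars are 95% exact Poisson counting intervals. Skap1 exceeds Skap2 in the lymphoid libraries and falls below it in CD11b+, whereas Themis2 exceeds Themis in each library.

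Genes around the 8 were taken from 5 lists, of which the cytoplasmic partners and the other adaptors share 4 genes (Pag1, Lcp2, Grap2 and Fyb) and Ubash3a stands in both the partner and the T-lineage list. In each list some genes stayed under 5 CPM in a pair and could not be called, so the number tested is given beside each count, with the share called over all genes tested. Of 20 other T-lineage genes, 19 were tested between iCD8a and ILC1, and 0 were called higher in iCD8a than in ILC1 and 7 lower, against 3.52% and 4.89% of all genes, with a median log2 ratio of -1.10. Icos, a costimulatory receptor, was 63.1-fold lower in iCD8a (3.05 CPM) than in ILC1 (192 CPM; interval 49.97 to 80.8), and Tcf7, a transcription factor of early T cells and innate lymphoid cells, was 56.5-fold lower (8.89 against 502 CPM; 49.3 to 65.1). Against CD11b+, 11 of 17 tested were called higher in iCD8a (6.13% of all genes) and 18 of 19 in ILC1 (6.01% of all genes), with medians of 2.60 and 3.92, and 0 were lower in either (13.4% and 13% of all genes). Cd96, an adhesion receptor of T and natural killer cells, stood at 663 CPM in iCD8a and 50.2 CPM in CD11b+, 13.2-fold higher (12.5 to 14.0), and the kinase gene Camk4 was 13.7-fold higher (10.6 to 18.1). Cd28, the main costimulatory receptor of T cells, was 143-fold higher in ILC1 (75.9 CPM) than in CD11b+ (0.532 CPM; 86.3 to 256).

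Other lymphocyte adaptors numbered 25 matched of 26 listed. In iCD8a over ILC1, 1 was called higher, the B-cell linker Blnk at 22.9 against 1.00 CPM (22.9-fold, 14.9 to 36.8), and 5 were lower of 23 tested, with a median of -0.08, against 3.52% and 4.89% of all genes. Sh2d1a, which encodes the SLAM-associated adaptor SAP, was 48.1-fold lower in iCD8a (0.550 CPM) than in ILC1 (26.4 CPM; 27.9 to 90.8), and Nck2 28.7-fold lower (15.8 to 58.1). Against CD11b+, 6 of 22 tested were higher and 4 lower in iCD8a, with a median of 1.46, and 8 of 23 were higher and 4 lower in ILC1, with a median of 1.54. Over all genes 6.13% and 6.01% were higher and 13.4% and 13% lower, so the lower calls among adaptors were near the background. Clnk, a relative of the adaptor SLP-76, was 9.94-fold higher in iCD8a than in CD11b+ (8.90 to 11.1), and Trat1, which binds the antigen receptor complex, 11.7-fold higher (7.94 to 17.7). Lax1, a membrane adaptor that restrains lymphocyte signalling, was 85.2-fold higher in ILC1 than in CD11b+ (59.9 to 126), and Sh2d1a had 0 counts in CD11b+. Dok3, an inhibitory adaptor of myeloid and B cells, was 236-fold lower in iCD8a (124 to 517) and 82.5-fold lower in ILC1 (55.3 to 129) than in CD11b+. Gab2, a docking protein, was 11.6-fold lower in iCD8a than in CD11b+ (9.90 to 13.7), and Dapp1, a phosphoinositide-binding adaptor, 6.59-fold lower in ILC1 (6.09 to 7.14).

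Among 29 cytoplasmic partners, of which 28 were tested in each comparison, 0 were called in either direction for iCD8a over ILC1, against 3.52% higher and 4.89% lower of all genes, with a median of -0.01. Against CD11b+, 5 were higher and 1 lower in iCD8a (median 0.22), and 6 were higher and 1 lower in ILC1 (median 0.31), against 6.13% and 13.4%, and 6.01% and 13%, of all genes. Lck, the kinase bound to coreceptors and to TSAd, was 11.0-fold higher in iCD8a (10.5 to 11.6) and 8.91-fold higher in ILC1 (8.48 to 9.36) than in CD11b+. Cd2ap, which encodes a scaffold that binds the CD2 tail, was the 1 gene called lower, at 12.9 (iCD8a), 13.0 (ILC1) and 144 CPM (CD11b+).

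Of the ligands and counter-receptors of the 5 receptors, 13 of 14 were measured. Of 10 tested between iCD8a and ILC1, 0 were higher and 2 lower in iCD8a (median -0.0017), against 3.52% and 4.89% of all genes. Of 12 tested against CD11b+, 1 was higher and 3 were lower in each lymphoid library (medians -1.14 in iCD8a and -0.97 in ILC1). Over all genes 6.13% and 6.01% were higher and 13.4% and 13% lower, so the 1 higher call was near the background. The 3 lower genes were Alcam, Sectm1b and Adgre5 in iCD8a, and Alcam, Sectm1b and Itgam, the gene of the sorted CD11b itself, in ILC1. Itgb3, an integrin chain that can bind Thy1, was the 1 called higher, at 82.0 (iCD8a), 377 (ILC1) and 17.1 CPM (CD11b+). It was 4.60-fold lower in iCD8a than in ILC1 (4.38 to 4.84). Adgre5, which encodes the adhesion receptor CD97 and a partner of Thy1, stood at 71.2, 331 and 650 CPM, 4.65-fold lower in iCD8a than in ILC1 (4.41 to 4.91) and 9.13-fold lower than in CD11b+ (8.68 to 9.60). Sectm1b lies next to Cd7 in the genome and belongs to the family of CD7 ligands. It was at 1.10 (iCD8a), 0.364 (ILC1) and 5.28 CPM (CD11b+). Sectm1b was 4.80-fold lower in iCD8a (3.15 to 7.59) and 14.5-fold lower in ILC1 (7.19 to 34.3) than in CD11b+. Sectm1a, the other family member, had 0, 0 and 18 counts.

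**Figure D4:**
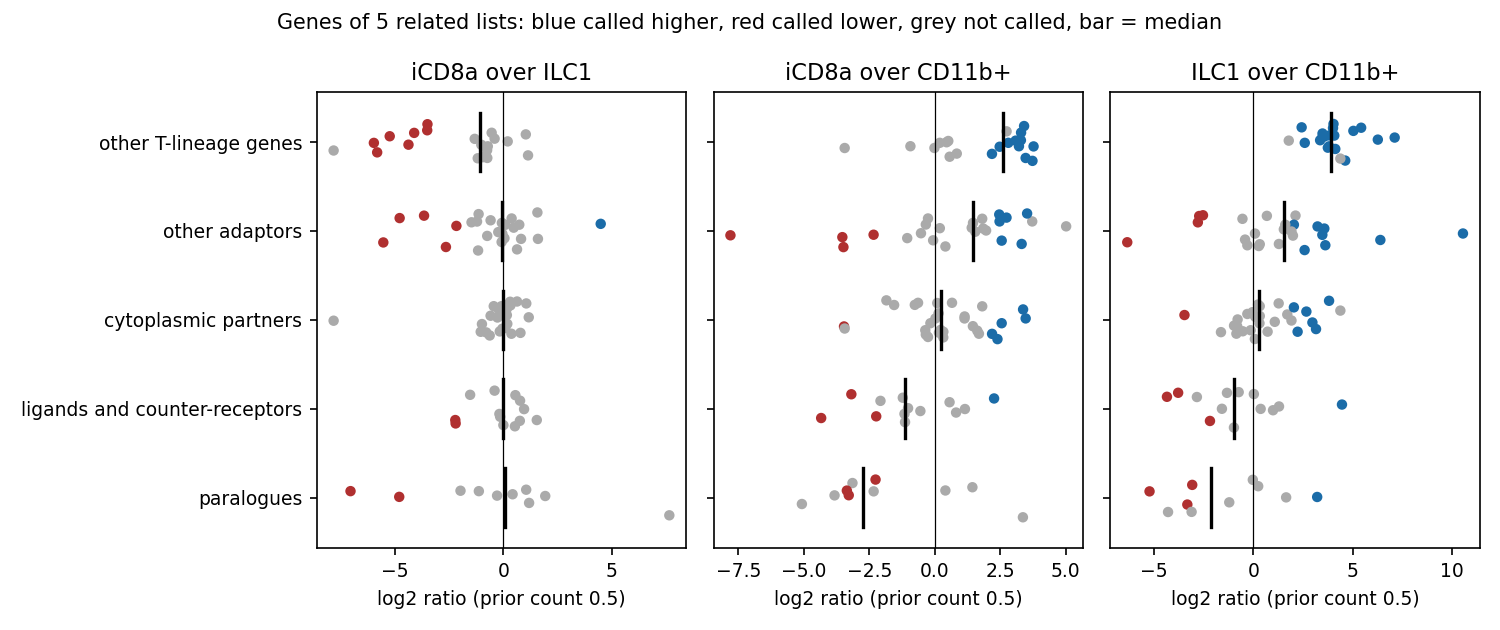
Log2 ratios (prior count 0.5) of single genes in 5 lists for iCD8a over ILC1, iCD8a over CD11b+ and ILC1 over CD11b+; each point is a gene with at least 1 CPM in some library, coloured blue where called higher, red where called lower and grey otherwise, and black bars are list medians. The T-lineage medians lie to the right in both comparisons with CD11b+ and 7 of them were called lower in iCD8a over ILC1, while the paralogue medians lie to the left against CD11b+.

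Genes with the most similar profile over the 3 libraries were looked up among 5208 protein-coding genes with at least 50 CPM in some library, for the 5 genes that reached 20 CPM. Cd7 lay nearest to Gzmb (log2 distance 0.07), a granzyme of cytotoxic lymphocytes at 14623 (iCD8a), 1449 (ILC1) and 1198 CPM (CD11b+), followed by Mcam (0.15) and Ccl5 (0.17). Genes close to Skap1 included Gimap3 (0.07) and Sytl3 (0.08). Sh2d2a was closest to Cd160 (0.15), Bicdl1 (0.22) and Klrb1c (0.42), and Thy1 to Tnfsf14 (0.18), Prg4 (0.44) and Styk1 (0.55). The nearest genes to Cd2 were Il18rap (0.42), Il2ra (0.68) and Il18r1 (0.69). With 3 libraries, 13 genes lay within 0.25 of Skap1, 4 of Cd7, 2 of Sh2d2a, 1 of Thy1 and 0 of Cd2.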

How the data were processed

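RNA-seq was analysed from 3 libraries, 1 for each of iCD8a, ILC1 and CD11b+. Each deposited file gives unnormalised read counts for Ensembl genes. Per the series' design text, the authors aligned reads with TopHat and counted them with HTSeq. CASAVA 1.9 and TopHat2 are named by the submitters' processing notes. No source used here gives the genome build, annotation, strand setting or counter version, so promoter coordinates are those of the RefSeq table alone. The 5 rows that name no gene were left out of library sizes. As shares of all rows in iCD8a, ILC1 and CD11b+, alignments that were not unique came to 26.9%, 34.5% and 30.5%, reads in no gene to 9.31%, 11.0% and 8.56% and ambiguous reads to 1.08%, 0.889% and 0.922%. Mitochondrial genes held 1.60%, 2.09% and 9.53% of the gene counts, so CD11b+ stood apart from the other libraries in this share.

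Symbols and merged exon lengths came from GENCODE M21, which matched 35449 of 37224 IDs. TMM (edgeR 4.0.16, R 4.3.3) gave iCD8a a factor of 1.09, ILC1 0.992 and CD11b+ 0.925. Folds are ratios of normalised counts with 95% exact conditional binomial intervals (scipy 1.17.1, numpy 2.4.6, pandas 2.3.3, Python 3.11.15; figures with matplotlib 3.10.9). No test is possible with 1 library per group. DESeq2 1.42.0, like edgeR, supplied scaling factors, and there are no p-values here. Without molecular identifiers, PCR copies cannot be separated from molecules, so intervals and floors cover counting error only. Medians of lists use a prior count of 0.5 and genes with at least 1 CPM in some library. Comparisons across all genes count those with at least 5 CPM in either library of a pair as tested. The procedure was also run on simulated counts that held counting error only. Those counts carried no spread between animals, so the run cannot show how the calls behave under such spread. Protein sequences were not used here.

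The 8 genes and the lists were chosen with earlier results of these data known. Named were the 8 genes, Rag1, Rag2 and sort markers, the 2 genes of each list with the largest near bound per pair and direction among those called, Themis2 and Skap2, and the 3 genes nearest in profile to each of the 8 that reached 20 CPM. A gene that the rule names is not reported here. Genes outside that rule were named after their values were seen. They were ligands and partners of the 8 (Cd48, Fyb, Grb2, Ptpn6 and Sectm1a) and genes shared between lists (Pag1, Lcp2, Grap2 and Ubash3a). Overlapping genes so named were Gm11775, 4930519F09Rik and 2010300F17Rik. Members of marker lists so named were CD3 chain genes, Cd4, Cd8b1, Cd247, Trac, Trbc1, Trbc2, Klrc2, Klrd1, Il5, Itgax, Cdh1, Vim, Pdgfra, Lum, Col6a1 and Bgn. Alternatives were other scalings, thresholds, thinning and removal of gene groups.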

Additional observations from a re-analysis of the deposited data

How the results depend on the processing

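No called fold of the 8 genes changed direction, and none of 189 fold values under the other scalings, thinning and gene removals moved by over 1.5 times. The largest shift was 1.25 times, for Themis in iCD8a over CD11b+ after thinning. Yet 15 of the 189, all for Cd7, Sh2d2a or Skap1, lay outside the counting interval of the main fold. Scaling by total count gave Cd7 a fold of 10.7 in iCD8a over ILC1 and 14.8 over CD11b+. The intervals in brackets thus do not cover the choice of scaling. With a minimum of 20 CPM in the higher library, 1 gene (Cd7) stayed called higher in iCD8a over ILC1, 1 (Thy1) lower in iCD8a over CD11b+ and 0 lower in ILC1 over CD11b+, because Themis and Cd6 lie below that level. A fold of 8 with a near bound of 4 left 1 gene (Cd6) lower in iCD8a over CD11b+. Removing the 50 most abundant genes of each library took out Cd7 itself and left 1 gene (Themis) higher in iCD8a over ILC1. A minimum of 1 CPM added Cd5 to the genes higher in iCD8a, 3 over ILC1 and 5 over CD11b+. In all, 67 of 72 counts of called genes under alternatives stayed within 1.5 times. Of 30 list medians, 7 moved by over 0.1 (log2); setting zeros at the 3-count floor moved the paralogue median for ILC1 over CD11b+ to -1.42, against -2.14. Scaling by total count moved the median of all genes to 0.18, 0.28 and 0.11 (log2) in the 3 comparisons, against 0.04, 0.04 and 0.00 with TMM. Over all genes, a minimum of 1 CPM called 575 higher and 751 lower in iCD8a over ILC1 and 2182 lower in iCD8a over CD11b+, against 356, 494 and 1447. A minimum of 20 CPM called 186, 299 and 936, and 438 higher in iCD8a over CD11b+ (against 663) and 881 lower in ILC1 over CD11b+ (against 1391). A fold of 8 called 202 and 305 in iCD8a over ILC1, 273 higher in iCD8a over CD11b+ and 297 higher in ILC1 over CD11b+ (against 645). A fold of 2 called 959 and 1092, 1802 and 2226, and 1830 and 2248 higher and lower in the 3 comparisons. No paired analysis was possible because each population has 1 library. Cd5 and Cd6 in ILC1 rest on 1 count each, so depth limits every statement on them there.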

Other observations

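Scavenger-receptor cysteine-rich relatives of Cd5 and Cd6 had their own distribution. Cd5l, a secreted protein of tissue macrophages, had 1 count (iCD8a), 184 counts (ILC1) and 25 counts (CD11b+). It was 9.44-fold higher in ILC1 than in CD11b+ (6.19 to 15.0). Cd163l1 stood at 0.381 (iCD8a), 11.2 (ILC1) and 3.55 CPM (CD11b+), 29.4-fold lower in iCD8a than in ILC1 (15.2 to 65.0). Dmbt1, a mucosal protein of epithelium, was 10.3-fold lower in iCD8a than in CD11b+ (9.23 to 11.5). The 20 epithelial markers summed to 913, 534 and 2128 CPM in iCD8a, ILC1 and CD11b+, with medians of 8.67, 7.93 and 65.0 CPM. The 12 macrophage markers summed to 33, 388 and 7984 CPM, none at 0, and the part of macrophage or epithelial RNA in these levels was not tested. Over all paralogues listed, 10 of 12 were measured, with 0 called higher and 2 lower in iCD8a over ILC1, 0 and 3 in iCD8a over CD11b+, and 1 and 3 in ILC1 over CD11b+. Of the 10, 6, 4 and 6 reached the 5 CPM needed for a call in these comparisons, and over all genes tested 3.52% and 4.89%, 6.13% and 13.4%, and 6.01% and 13% were called higher and lower.

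Reads of a gene and an overlapping partner on the opposite strand cannot be told apart without a stated strand setting. Cd7 shares 122 exon bases with the antisense gene Gm11775, with 500 counts (iCD8a), 46 (ILC1) and 44 (CD11b+). For Themis the partner 4930519F09Rik had 2, 0 and 0 counts, and Skap1 shares 186 exon bases with the opposite-strand gene 2010300F17Rik, which was not analysed here. For Cd2, Cd5, Cd6, Thy1 and Sh2d2a the annotation lists no overlapping gene.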
